A study of Acipenser transmontanus and Acipenser medirostris with 18 samples.

Results

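The white sturgeon esophagus was represented by 1 tissue library, 1 of the 18 libraries sequenced, and it was set against the 5 other tissues sampled in that species, namely the barbel, the ampullae of Lorenzini (electroreceptive pores), the upper palate, the rim of the mouth and the dorsal skin. Each of these tissues also had 1 library, and each was dissected tissue from an untreated, octoploid fish (Acipenser transmontanus) from a research broodstock or a caviar farm. The other 12 libraries were 11 epithelial cultures, among them 1 from the esophagus of green sturgeon (Acipenser medirostris), and 1 culture of fibroblasts and adipocytes. Polyadenylated RNA was read as full-length cDNA by PacBio Iso-Seq, in which each read spans a transcript, and each value is a count of reads per transcript. Which fish, and how many, gave each tissue is not given in the labels, and dissected tissue holds whatever cell types lay under and within the epithelium. In such tissue, fewer cells of a type and less of its RNA per cell cannot be told apart. Each tissue also carried its own barcode, so that barcode and tissue cannot be told apart either.

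The esophagus of fishes is lined by a stratified epithelium that faces food and water rather than air, and it is known for abundant mucous (goblet) cells. Goblet cells secrete gel-forming mucins together with small partners such as trefoil factors, which stabilise the mucus, and AGR2, which helps to fold mucins in the endoplasmic reticulum. Stratified epithelia are held together by keratin filaments, which are built from paired type I and type II proteins, and by desmosomes, to which the filaments attach.

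The esophagus library was the shallowest of the series. It held 29797 counts, against 75334 to 204203 in the 5 other tissues, and counts fell on 4166 loci, against 6061 to 7611. A protein name from the sterlet (Acipenser ruthenus) was attached to transcripts holding 19427 of its counts, against 62713 to 195889 in the other tissues. All shares below are percentages of these annotated counts, summed by PacBio locus (PB number), unless another total is named. A single count was worth 0.00515% in the esophagus, against 0.000511% to 0.00159% elsewhere, and a gene with 0 counts there could still have made up to 0.0154% of annotated counts (3 counts, the one-sided 95% limit that a count of 0 allows). Intervals are Wilson 95% intervals, which cover counting error only, because amplified cDNA reads are not independent molecules and there is no second esophagus library.

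A locus was called above (or below) the other tissues when the esophagus interval lay wholly beyond the intervals of all 5, and the share was at least 2-fold the highest (or at most 1/2 of the lowest). Of 4687 loci with at least 10 annotated counts in the 6 tissues, 77 were above, or 1.64%, and 10 were below, or 0.213%. That minimum includes the esophagus counts. A locus with fewer than 10 counts in the other 5 tissues was thus tested only through the esophagus. The esophagus was merely the highest of the 6 tissues at 1185 loci (25.3%) and the lowest at 1417 (30.2%), and it had no count at 1707. The 77 loci summed to 11.3% of esophagus counts, against 0.698% in barbel, 1.75% in ampullae, 3.39% in upper palate, 2.38% in mouth rim and 1.31% in dorsal skin. Their esophagus counts ran between 4 and 262 with a median of 20, and 10 of them rested on fewer than 10 counts. Their ratios to the highest other tissue ran between 2.00 and 134.5 with a median of 3.23. With no replicate of any tissue, the rule describes these libraries, and an exact permutation of 1 library against 5 cannot give a two-sided p under 0.167.

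More loci were above in the esophagus than in any of the other 5 tissues put to the same rule, although barbel had more below. Set against their own 5 neighbours, dorsal skin had 40 loci above and 4 below, barbel 11 and 22, mouth rim 11 and 0, ampullae 8 and 4, and upper palate 7 and 2. With every library's interval set as wide as at the esophagus depth, the counts above were 33 for the esophagus, 11 for dorsal skin, 4 for ampullae, 3 each for barbel and upper palate and 2 for mouth rim. The upper palate was most often next to the esophagus. It had the second-highest share at 50 of the 77 loci (64.9%), whereas it was the highest of the 5 at 25.5% of all loci tested. Mouth rim was second at 17, ampullae at 5, dorsal skin at 4 and barbel at 1. Of the 77 loci, 33 were of cytosolic ribosomal proteins. Among all 143 ribosomal loci tested, the upper palate was the highest of the 5 other tissues at 91. Without the upper palate, 175 loci were above and 27 below.

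**Figure D1:**
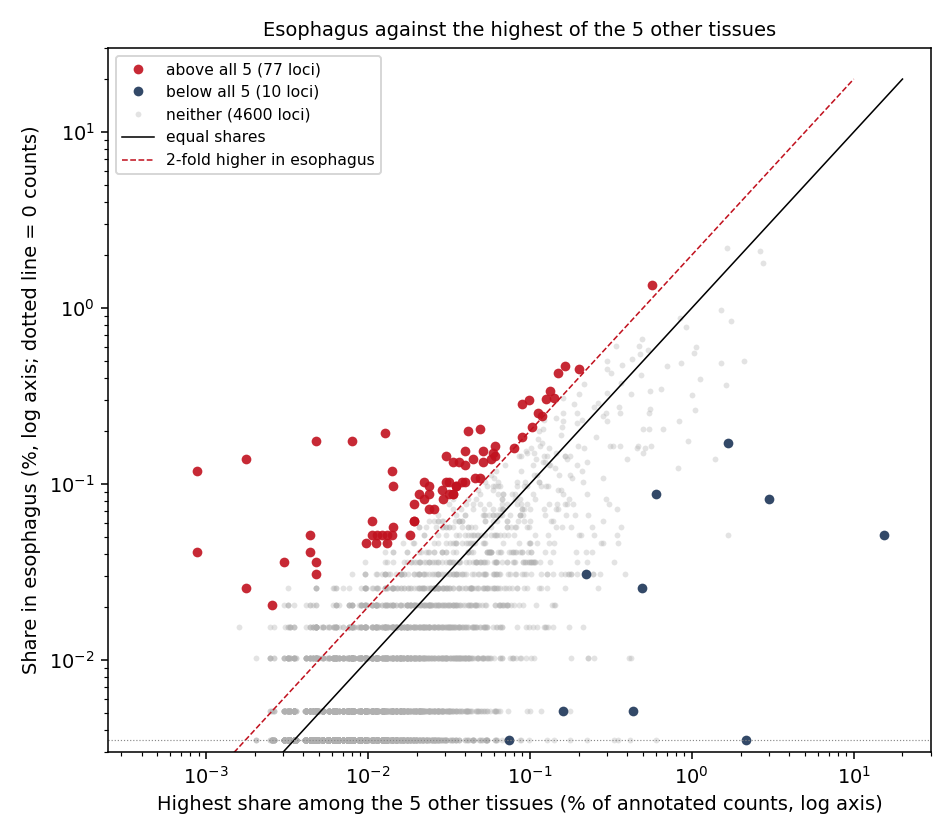
Each point is 1 of 4687 loci. The vertical axis is its share in the esophagus and the horizontal axis its highest share among the 5 other tissues, both in % of annotated counts on log axes, and points on the dotted line have 0 esophagus counts. The 77 loci above all 5 tissues (red) lie beyond the dashed 2-fold line, and the 10 below (dark blue) lie far under the line of equal shares.

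Across all loci, edgeR's quasi-likelihood test of the esophagus against the other 5 tissues, in which the lone library is assumed to vary as the 5 others do, found 5 of 2492 loci higher (0.201%) and 0 lower at a Benjamini-Hochberg FDR of 0.05. At an unadjusted p under 0.05 there were 107 higher and 171 lower, and DESeq2 called 3 higher and 2 lower. The number called higher was 27 without the upper palate (and 1 lower), 3 without the mouth rim and 2 without the ampullae. All 5 loci were among the 77 above. Of the 77, 72 passed edgeR's filter on low counts, and all 10 loci below did. Both rules read the same counts, so that a locus passing both is not supported by independent data. The filter of edgeR also keeps a locus that is high in 1 library alone. PB.4016, PB.16038, PB.18995 and PB.21177 had at most 5 counts in any other tissue. They were thus tested only because the esophagus was high, and their passing adds no support. Of the 5, only PB.17183 had 10 or more counts in another tissue (14 in mouth rim).

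The 5 loci past both rules were a mucin, a lectin, an iron carrier, a mitochondrial enzyme and a locus of the glutamine amidotransferase family. The widest gap to the other tissues was that of PB.4016, a lactose-binding lectin l-2-like protein, a C-type lectin known from the skin mucus of eels. It had 27 counts in esophagus, against 2 in mouth rim and 0 in barbel, ampullae, upper palate and dorsal skin. Its share was 0.139% (95% interval 0.0955 to 0.202%), which is 79.0-fold the mouth rim's (counting interval of the ratio 18.8 to 332.1). The log2 fold change in edgeR was 7.87. No count of it was seen in any of the 11 epithelial cultures.

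PB.18995, named mucin-2, a gel-forming mucin of goblet cells, had 34 counts in esophagus, against 5 in upper palate, 1 in mouth rim and 0 in barbel, ampullae and dorsal skin. The share was 0.175% (0.125 to 0.244%), 21.9-fold the upper palate's (8.59 to 56.1), with a log2 fold change of 6.74 in edgeR. Summed over both loci named mucin-2 the share was 0.221%, against 0.0191% in upper palate, and the log2 ratio of 4.46 to the palate became 3.53. Its counts were spread over 7 transcripts, and like the lectin it was absent from the 11 epithelial cultures. Both loci were thus read almost wholly in the esophagus tissue, with a trace in the mouth.

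PB.16038, serotransferrin-2, an iron carrier, had 34 counts in esophagus, against 1 in ampullae, 3 in upper palate and 0 in barbel, mouth rim and dorsal skin. Its share was 0.175% (0.125 to 0.244%) and 36.6-fold the upper palate's (11.2 to 119.1), with a log2 fold change of 7.27 in edgeR. The 34 counts came from 11 annotated transcripts. Unlike the mucin and the lectin, it was read in cultures, with 2196 counts or 0.841% in the green esophagus culture. The 10 other epithelial cultures ran between 0 and 0.955% with a median of 0.0662%, and 2 had none.

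PB.21177, creatine kinase U-type, the ubiquitous mitochondrial form of the enzyme that transfers phosphate between ATP and creatine, had 23 counts in esophagus, against 1 in mouth rim and 0 in the remaining 4 tissues. The share of 0.118% (0.0789 to 0.178%) was 134.5-fold that of mouth rim, with a counting interval of 18.2 to 996.2 because the mouth rim had a single count. The log2 fold change in edgeR was 8.31. It too was read in culture, with 120 counts (0.0459%) in the green esophagus culture, and between 0 and 0.0686% in the other epithelial cultures. PB.17183, glutamine amidotransferase-like class 1 domain-containing protein 3A, had 38 counts in esophagus, against 4 in barbel, 4 in ampullae, 8 in upper palate, 14 in mouth rim and 12 in dorsal skin, and so was present in every tissue. Its share of 0.196% (0.142 to 0.268%) was 15.3-fold the upper palate's (7.15 to 32.9), with a log2 fold change of 4.31 (edgeR, adjusted p = 0.0154). A second locus of that name, PB.17964, was above by the range rule (87 counts, 2.21-fold the mouth rim) but not in edgeR, and not with all counts as the total. Summed over the 3 loci of that name, between which reads may be divided, the share was 0.649% in esophagus, against 0.224% in the highest other tissue, and the log2 ratio of 3.94 for PB.17183 became 1.53.

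**Figure D2:**
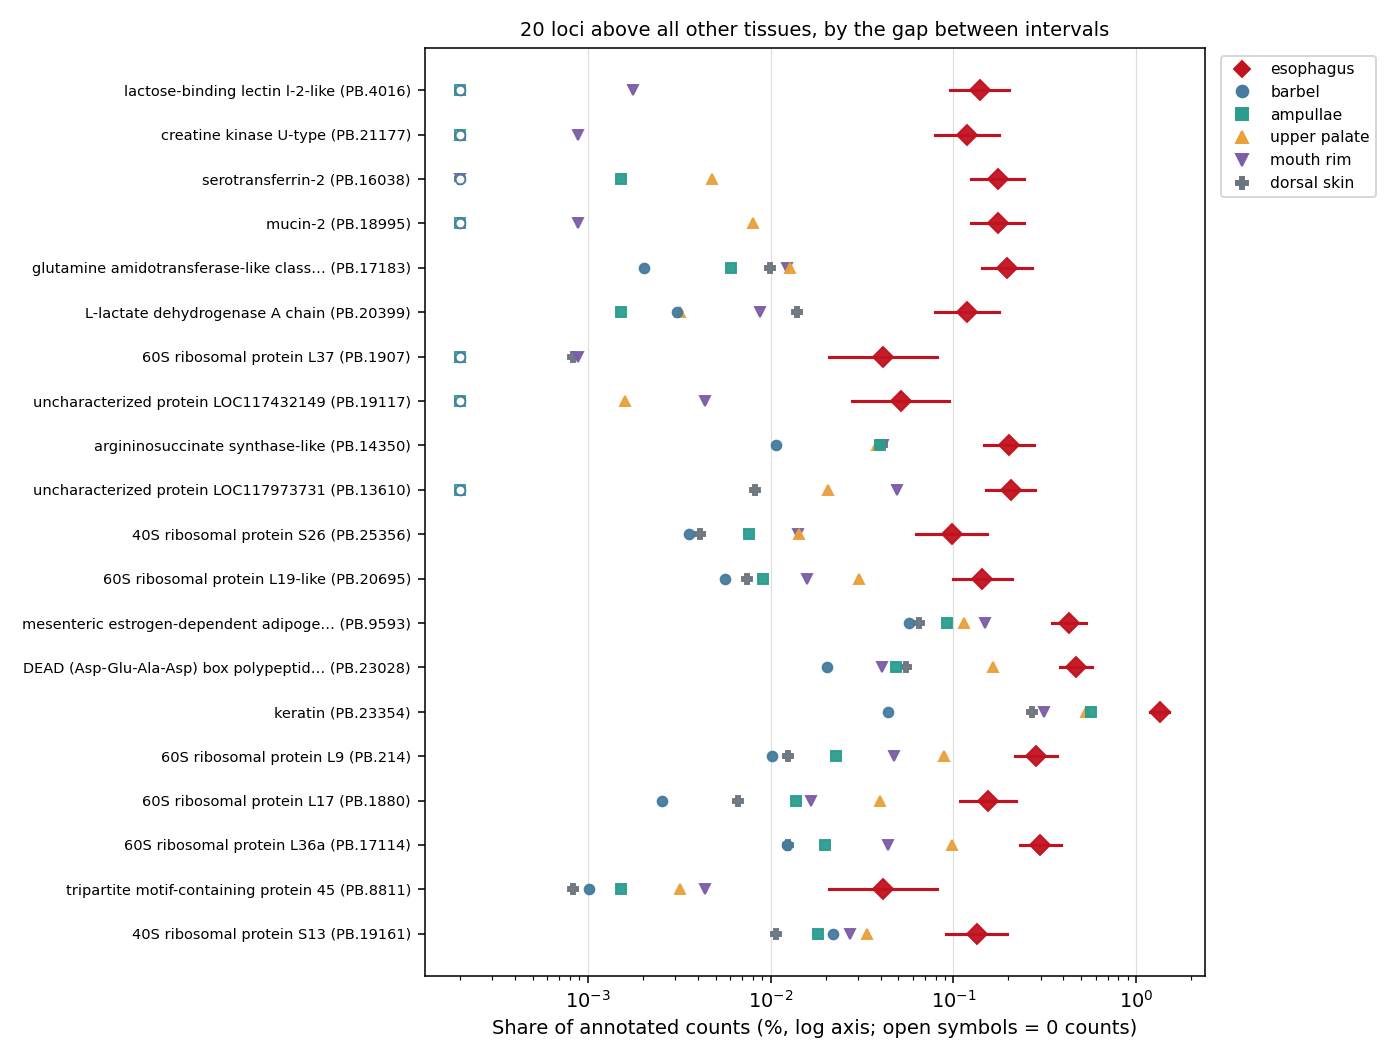
Shares of annotated counts (%, log axis) of the 20 loci with the widest gap between the esophagus interval and those of the other tissues, 1 row per locus, the esophagus as a red diamond with its 95% interval and the other tissues as the symbols of the legend. Open symbols at the left edge mark 0 counts and overlap where several tissues had none. The red diamonds lie to the right of every other symbol in all 20 rows, and the upper palate or mouth rim is the nearest symbol in most.

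A further 4 loci with wide gaps were read in all 6 tissues, and 3 of them encode enzymes. PB.20399, L-lactate dehydrogenase A, which interconverts pyruvate and lactate, had 23 counts in esophagus, against 6, 1, 2, 10 and 17 in barbel, ampullae, upper palate, mouth rim and dorsal skin (8.44-fold the dorsal skin, 4.51 to 15.8). PB.14350, an argininosuccinate synthase of arginine synthesis, had 39, against 21, 26, 24, 47 and 49 in the same order (4.85-fold the mouth rim, 3.18 to 7.42). PB.23028, DDX39B, an RNA helicase of splicing and mRNA export, had 91, against 40, 32, 103, 46 and 67 (2.85-fold the upper palate, 2.15 to 3.78). PB.9593, named mesenteric estrogen-dependent adipogenesis protein, had 83, against 112, 61, 72, 169 and 79 (2.87-fold the mouth rim, 2.21 to 3.74). For PB.20399 the raw count was also highest in the esophagus, whereas for the other 3 at least 1 deeper library had more counts and the esophagus was first by share. With all counts as the total, the log2 ratio of PB.9593 was 1.05. None of these 4 passed the edgeR FDR.

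Of the 20 loci with the widest gaps, 2 carry only the name of an uncharacterized protein. PB.13610, named uncharacterized protein LOC117973731, had 40 counts in esophagus, against 13 in upper palate, 56 in mouth rim, 10 in dorsal skin and 0 in barbel and ampullae (4.18-fold the mouth rim). That name covers 52.1% of the counts of the locus, which also holds transcripts named LOC117973730, and by that name alone the log2 ratio of 2.06 became 3.28. PB.19117, named uncharacterized protein LOC117432149, had 10, against 1 in upper palate, 5 in mouth rim and 0 in the remaining 3. Both were thus read in the esophagus and the mouth but, like mucin-2, not in barbel or ampullae. PB.8811, TRIM45, a ubiquitin ligase family member, had 8, against 2, 1, 2, 5 and 1 in barbel, ampullae, upper palate, mouth rim and dorsal skin.

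Mucus genes were the list with the highest share relative to the other tissues. Together the 18 loci of mucins, trefoil factor, AGR2 and their partners held 162 counts or 0.834% in esophagus (0.715 to 0.972%), against 0.0485% in barbel, 0.0304% in ampullae, 0.289% in upper palate, 0.339% in mouth rim and 0.0330% in dorsal skin. That is 2.46-fold the highest of the 5 and 27.4-fold the lowest. Here and for the lists that follow, the summed share covers every locus of the list, and calls cover those with at least 10 counts. Of the 11 loci tested, 4 were above by the range rule, beside 1.64% of all loci tested, and none was below. PB.18995 reached the 10-count minimum only through its esophagus counts, so that its call adds no support. With all counts as the total, PB.18995 and PB.8449 kept the call, and PB.22873 and PB.7336 lost it. The median log2 ratio of the 11 to the mean of the other tissues was 2.25, whereas that of all 4687 loci was -0.44. These ratios add 0.5 of an esophagus count to each share, so that a locus without counts has a value.

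Besides the mucin-2 locus PB.18995, the 3 mucus loci above were a second mucin, an IgGFc-binding protein and a trefoil factor. PB.7336, named mucin-2 with some transcripts named integumentary mucin, had 12 counts in esophagus, against 12 in upper palate, 5 in mouth rim and 0 in barbel, ampullae and dorsal skin (3.23-fold the upper palate, 1.45 to 7.18). PB.22873, an IgGFc-binding protein, a large mucus component of mammalian goblet cells, had 41, against 7 in barbel, 0 in ampullae, 37 in upper palate, 117 in mouth rim and 13 in dorsal skin (2.05-fold the mouth rim, 1.44 to 2.93). Summed over the 5 loci of that name, the share was 0.335% in esophagus, against 0.219% in mouth rim, a smaller gap. PB.8449, trefoil factor 2, had 12, against 8, 6, 5, 12 and 4 in barbel, ampullae, upper palate, mouth rim and dorsal skin (5.85-fold the mouth rim, 2.63 to 13.02). All 4 therefore had their next-highest share in the mouth, at the palate or the rim.

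Other loci of the list were not called, and not all were highest in the esophagus. Transcripts named mucin-2-like held 0.144% in esophagus (0.0997 to 0.208%), against 0.116% in upper palate and 0.0748% in mouth rim, so that the esophagus interval covered the palate's value. AGR2 had 11 counts (0.0566%, 0.0316 to 0.101%), against 8 in upper palate (0.0128%), 5 in mouth rim, 14 in dorsal skin and 0 in barbel and ampullae, and the highest share was the esophagus's. Calcium-activated chloride channel regulator 1 had 1 esophagus count, against 6, 12, 15, 10 and 0 in barbel, ampullae, upper palate, mouth rim and dorsal skin. Its share of 0.00515% had an interval (0.000909 to 0.0292%) that covered the palate's 0.0239%. Regulator 2 of that family had 0 counts, against 49, 1, 4, 16 and 0 in the same order. The 47 loci for enzymes that build O-linked sugars held 0.134% (0.0913 to 0.196%), against 0.0574 to 0.104%, and none of the 13 tested was called in either direction.

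Of the secreted defence proteins, the lectin and serotransferrin were the 2 of 16 tested loci above, beside 1.64% of all loci tested. Both reached the count minimum only through their esophagus counts, so that their calls add no support. The summed share of the list was 1.07% in esophagus (0.935 to 1.22%), against 0.578 to 1.02%. With all counts as the total, this sum lay within the other tissues. Transcripts named lectin-like had 11 counts in esophagus (0.0566%, 0.0316 to 0.101%), against 2 in upper palate, 1 in mouth rim and 0 in the remaining 3 tissues. Lysozyme C, which cleaves bacterial cell walls, had 52 counts in esophagus (0.268%, 0.204 to 0.351%), against 0.289% in dorsal skin, the lowest of the 5, and 0.555% in ampullae, the highest. Ferritin, which stores iron, held 93 counts at 2 loci, or 0.479% (0.391 to 0.586%), against 0.0944% in barbel, 0.0989% in ampullae, 0.209% in upper palate, 0.233% in mouth rim and 0.277% in dorsal skin. The ferritin sum thus lay above all 5 tissues, 1.73-fold the highest, but neither locus reached the 2-fold limit with separate intervals and neither passed edgeR.

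Keratin was abundant in the esophagus, but its makeup by locus differed from that of the other tissues. The 1151 keratin counts made 5.93% of annotated counts (5.601 to 6.266%), against 18.4% in barbel, 15.2% in ampullae, 9.33% in upper palate, 10.5% in mouth rim and 5.44% in dorsal skin. PB.22701 led every other tissue, with 30165, 5073, 2370, 6398 and 2864 counts in barbel, ampullae, upper palate, mouth rim and dorsal skin, but it had 10 in esophagus. Its share was 0.0515% (0.0280 to 0.0947%), 45.9-fold under the lowest of the 5, dorsal skin at 2.36%, and it was the locus furthest below the other tissues (log2 fold change -7.43, edgeR adjusted p = 0.412). Within the keratin counts it made 0.869% in esophagus, against 40.5 to 83.5% in the other tissues.

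The esophagus keratins were instead PB.25257, PB.20744 and PB.23354. PB.25257 made 36.8% of keratin counts in esophagus (34.1 to 39.7%), against 2.265 to 11.97% in the other tissues, and 2.18% of annotated counts, against 1.66% in ampullae as the next. PB.20744 made 30.5% of keratin counts in esophagus, against 29.4% in upper palate, 23.0% in mouth rim and 2.39 to 8.68% in the remaining 3. PB.23354 made 22.8% (20.4 to 25.3%), against 0.238 to 5.67%, and was the only keratin locus above, with 262 counts, or 1.35% of annotated counts (1.20 to 1.52%), against 0.0439% in barbel, 0.569% in ampullae, 0.529% in upper palate, 0.312% in mouth rim and 0.271% in dorsal skin. In edgeR its log2 fold change was 1.74 (adjusted p = 0.454). PB.23354 lost the call with all counts as the total, where its log2 ratio to the ampullae was 0.82, against 1.25 with annotated counts, and the ratio was 0.88 with TMM-scaled totals. Within keratin counts, PB.20744 thus had near-equal shares in esophagus and palate. PB.25257 and PB.23354 made more of the esophagus keratin counts than in any other tissue. Shares of keratin counts are higher for every other locus where PB.22701 is low. Of annotated counts, PB.20744 made 1.81% in esophagus, against 2.74% in upper palate, 2.41% in mouth rim and 0.44 to 1.19% in the remaining 3. The share of PB.25257 in annotated counts was 1.31-fold the ampullae's, and that locus was not called.

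PB.22698 had 0 counts in esophagus, against 2456 in barbel, 1412 in ampullae, 42 in upper palate, 41 in mouth rim and 1129 in dorsal skin. Taken at 3 counts, its esophagus share was at least 2.34-fold lower than the mouth rim's, the lowest of the 5 (taken as exact). Its counts were thus few in the mouth tissues and many in barbel, ampullae and dorsal skin. PB.25558, whose transcripts are named keratin or intermediate filament protein ON3-like, made 7.38% of keratin counts in esophagus, against 4.05 to 12.4%. The green esophagus culture had another makeup: PB.20744 made 55.7% of its 2575 keratin counts, PB.22701 20.9%, PB.25257 2.21% and PB.23354 0.350%. The name keratin was shared by 22 loci and does not say which type each encodes, and how reads were divided between near-identical copies is uncertain. Summed over all transcripts of that name, the log2 ratio of esophagus to the highest other tissue was -1.63.

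**Figure D3:**
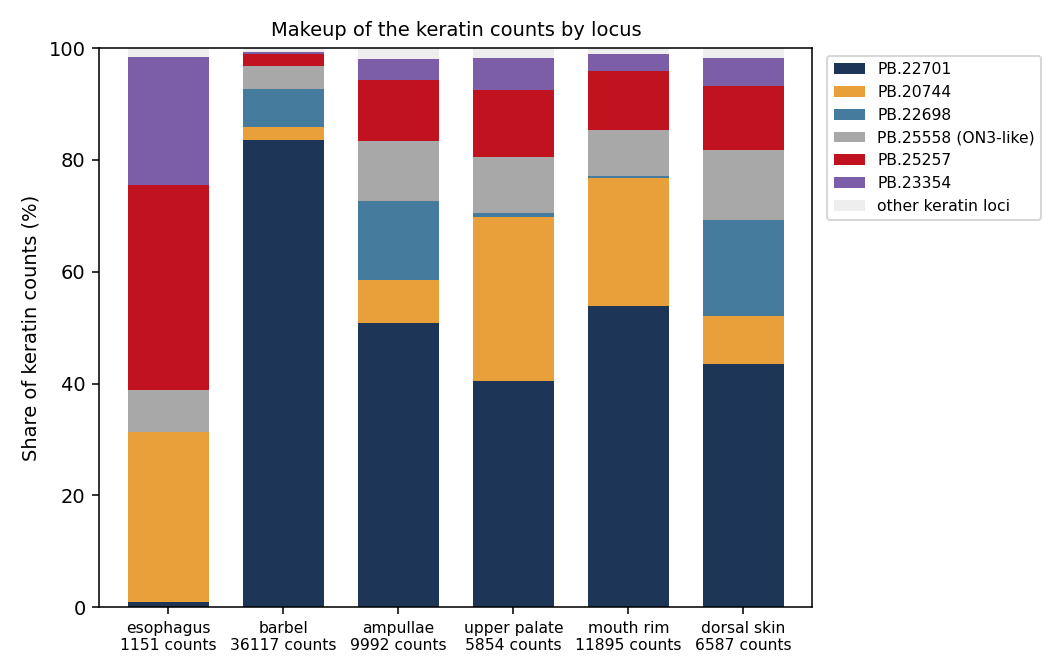
Share of keratin counts (%) held by each keratin locus in the 6 tissues, the esophagus leftmost, with the number of keratin counts under each bar. The locus PB.22701 (dark blue) fills 40.5 to 83.5% of the bars of the other tissues and 0.869% of the esophagus bar, which PB.25257, PB.20744 and PB.23354 fill instead.

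Among desmosome and cornified envelope proteins, plakophilin-1 was below the other tissues and the rest of the list, summed, lay within their range. The 19 loci held 121 counts, 0.623% (0.522 to 0.744%), against 2.16% in barbel, 2.06% in ampullae, 0.992% in upper palate, 1.5% in mouth rim and 1.75% in dorsal skin. By the range rule 1 of the 14 tested was below, beside 0.213% of all loci tested. That locus was PB.21755, plakophilin-1, a desmosomal plaque protein of stratified epithelia, with 33 counts (0.170%, 0.121 to 0.238%), against 3266, 723, 362, 1184 and 1386 in barbel, ampullae, upper palate, mouth rim and dorsal skin. Its share was 3.398-fold under that of the upper palate, the lowest of the 5, with a log2 fold change of -3.00 (edgeR, adjusted p = 0.443). Without transcripts named plakophilin-1, an alternative chosen after seeing the data, the list held 87 counts or 0.448% (0.363 to 0.552%), against 0.411% in upper palate and 0.960% in ampullae, the lowest and highest of the 5. Desmoplakin, which ties keratin filaments to desmosomes, made 0.211% (0.156 to 0.286%), against 0.201 to 0.666%, and transcripts named periplakin-like made 0.170% (0.121 to 0.238%), against 0.0745 to 0.201%. The median log2 ratio over the 14 tested loci was -0.48, beside -0.44 for all loci.

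Annexin A1 (PB.1945), a calcium-dependent membrane-binding protein of epithelia, was the other abundant protein of surface epithelium below all tissues. It had 16 counts in esophagus, against 5884 in barbel, 1476 in ampullae, 131 in upper palate, 864 in mouth rim and 2035 in dorsal skin. Its share was 0.0824% (0.0507 to 0.134%), 2.54-fold under that of the upper palate (edgeR log2 fold change -4.60, adjusted p = 0.443). Annexin A2 (PB.16371) had 81 counts or 0.417% (0.336 to 0.518%), against 0.173 to 0.483%, and was within the range of the other tissues. The 19 annexin and S100 loci together made 1.20%, against 1.15 to 4.40%.

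The remaining 6 loci below encode regulators and enzymes, with few or no counts in the esophagus. PB.963, KLF4, a transcription factor of differentiating epithelia, had 5 counts in esophagus, against 242, 103, 309, 441 and 435 in barbel, ampullae, upper palate, mouth rim and dorsal skin, and its share was 4.8-fold under the barbel's, the lowest of the 5. PB.5830, ornithine decarboxylase, the first enzyme of polyamine synthesis, had 1, against 463, 286, 41, 201 and 289 in the same order. Summed over the 2 loci of that name, the esophagus had 10 counts or 0.0515%, against 0.140% in the lowest other tissue. The log2 ratio of -3.67 to that tissue became -1.45. PB.23982, the phosphatase DUSP2, which inactivates MAP kinases, had 1, against 86, 106, 67, 126 and 64. These 3 thus had at least 41 counts in each of the shallower palate and ampullae libraries.

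PB.13842 is subunit B of the translation initiation factor eIF3. It had 0 counts in esophagus, against 113, 28, 29, 52 and 90 in barbel, ampullae, upper palate, mouth rim and dorsal skin. At 3 counts its share was at least 2.76-fold lower than the ampullae's (taken as exact). PB.5755, Rab-10, a GTPase of vesicle transport, had 6, against 225, 95, 76, 194 and 268, which is 3.72-fold under the barbel's share. PB.18607, the OST48 subunit of the enzyme that attaches N-linked sugars, had 17, against 582, 194, 112, 274 and 731, or 2.04-fold under the upper palate's share. None of the 10 loci below passed the edgeR FDR, and their adjusted p-values were between 0.331 and 0.451.

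Ribosomal protein genes formed the largest group of loci above. Of 143 tested cytosolic ribosomal loci, 33 were above, 22 of the large and 11 of the small subunit, and none below, against 77 above among all 4687. The esophagus had the highest share of the 6 tissues at 93 of them. All 198 loci of the list summed to 13.5% of esophagus counts (13.02 to 13.98%), against 1.69% in barbel, 3.00% in ampullae, 8.00% in upper palate, 4.29% in mouth rim and 2.35% in dorsal skin. The median log2 ratio to the mean of the other tissues was 1.44, against -0.44 for all loci, and the upper palate was the highest of the 5 at 91 loci. None of the 103 loci tested by edgeR passed the FDR.

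Among single ribosomal loci, PB.25356 (S26) had 19 counts in esophagus, against 7, 5, 9, 16 and 5 in barbel, ampullae, upper palate, mouth rim and dorsal skin, a share 6.82-fold the upper palate's (3.08 to 15.1). PB.20695 (L19) had 28, against 11, 6, 19, 18 and 9 (4.76-fold, 2.66 to 8.52), and PB.214 (L9) had 55, against 20, 15, 56, 54 and 15 (3.17-fold, 2.19 to 4.60). PB.11515 (the stalk protein P0), the ribosomal locus with most esophagus counts, had 171, or 0.880% (0.758 to 1.02%), against 0.848% in upper palate and 0.153 to 0.361% in the others, and was not above. Elongation factor 1-alpha (PB.26321), which brings aminoacyl-tRNA to the ribosome and is no ribosomal protein, was at 2.10% (1.91 to 2.31%), against 2.62% in upper palate and 0.369 to 1.31% elsewhere. The esophagus therefore exceeded the palate for many ribosomal proteins but not for this factor.

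The share of counts without a protein name ran in the same order of tissues as the ribosomal share, but for ampullae and mouth rim, which changed places. Unnamed transcripts took 34.8% of all counts in esophagus, against 19.2% in upper palate, 12.7% in ampullae, 9.50% in mouth rim, 5.68% in dorsal skin and 4.07% in barbel. Most of it was PB.26569, whose 146 transcripts carry no name, with 7068 counts, or 23.7% of all esophagus counts (23.2 to 24.2%), against 10.9% in upper palate, 5.94% in ampullae, 2.72% in mouth rim, 1.07% in dorsal skin and 0.821% in barbel. Annotated counts were also lowest in the esophagus, at 19427, while upper palate (62713) and ampullae (65751) came next and were close in depth. The part of depth and of the unnamed share in the ribosomal values was not tested. With all counts, named or not, as the total, 41 loci were above and 21 below.

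**Figure D4:**
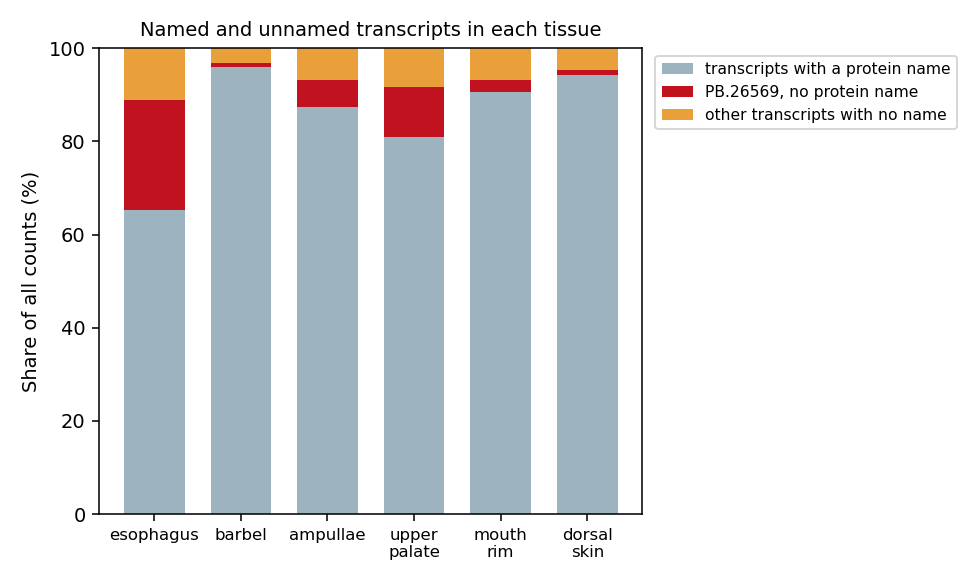
Share of all counts (%) in each tissue, the esophagus leftmost, held by transcripts with a protein name, by the unnamed locus PB.26569 and by other unnamed transcripts. PB.26569 takes 23.7% in esophagus and 0.821 to 10.9% in the other tissues.

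Cell division genes had few counts in the esophagus. Of 16 tested loci for replication and mitosis, 15 had 0 counts there, beside 1707 of all 4687 loci tested. The 2 counts seen, both of DNA topoisomerase 2-beta, made 0.0103% (0.00282 to 0.0375%), against 0.176% in barbel, 0.0776% in ampullae, 0.0367% in upper palate, 0.102% in mouth rim and 0.296% in dorsal skin. The replication factor MCM4 had 0 counts in esophagus, against 97 in barbel, 15 in ampullae, 5 in upper palate, 33 in mouth rim and 86 in dorsal skin. At 1 count for 0.00515%, the esophagus value was not separable from that of the upper palate, and no locus of the list was called. Genes of ion and water transport summed to 0.216% in esophagus (0.160 to 0.292%), against 0.389 to 0.544%, below all 5 tissues as a group but with no single locus called. Aquaporin-3, a water and glycerol channel of epithelia, had 4 counts (0.0206%, 0.00801 to 0.0529%), against 0.0470 to 0.143%.

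Markers of other cell types were at 0 or within the range of the other tissues. The red cell, gastric, pigment and electroreceptor lists had 0 counts in esophagus, which allows up to 0.0154% each, and at most 11 counts in any other tissue. Of the muscle list, all 6 counts in esophagus (0.0309%, 0.0142 to 0.0674%) were of tropomyosin 4, which many other cells also use, against 0.0169 to 0.0519%. The ciliated cell list had 9 counts (0.0463%), against 0.0248 to 0.0510%. Tektin-2, its defining marker here, had 0 in esophagus, against 2 in upper palate and 0 in barbel, ampullae, mouth rim and dorsal skin. Its 0 in the esophagus therefore decides nothing. Connective tissue genes made 0.206% (0.151 to 0.280%), against 0.155 to 0.467%, and 1 of 19 tested loci was above, beside 1.64% of all loci tested. It was PB.14912 (collagen XV, 10 counts), which lost the call with all counts as the total. The leukocyte list made 1.20% (1.06 to 1.36%), against 0.443 to 2.05%, and its largest member was beta-2-microglobulin (PB.24960), the light chain of MHC class I, at 0.782% (0.668 to 0.916%), against 0.926% in mouth rim and 0.757% in upper palate. The MHC class II invariant chain had 32 counts (0.165%, 0.117 to 0.232%), against 0.0891 to 0.562%.

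The library held mucins, trefoil factor, AGR2 and keratins, but no esophagus-specific marker was in the lists, and the gastric list had 1 count over all 6 tissues and so checks nothing. With annotated counts as the total, other lists lay within or at the edge of the other tissues. Junction genes made 0.860% (0.739 to 1.00%), against 0.834 to 1.21%, and 1 of 18 tested loci was above, beside 1.64% of all loci tested. It was PB.17503 (claudin-4, a tight junction protein, 21 counts, 2.36-fold the mouth rim), which lost the call with all counts as the total. Summed over the 3 loci named claudin-4-like, the share was 0.381% in esophagus, against 0.396% in mouth rim and 0.376% in ampullae, and so was not the highest. Respiratory chain genes made 1.10% (0.964 to 1.26%), against 0.946 to 1.98%, with none of 64 loci called. Heat shock and immediate early genes made 2.56% (2.35 to 2.79%), against 2.83 to 3.73%, with intervals that overlapped, and none of 21 loci was called. Endoplasmic reticulum and secretion genes made 0.582% (0.484 to 0.699%), against 0.738 to 1.77%. Of these, 1 of 43 was called, the OST48 subunit below, beside 0.213% of all loci tested.

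**Figure D5:**
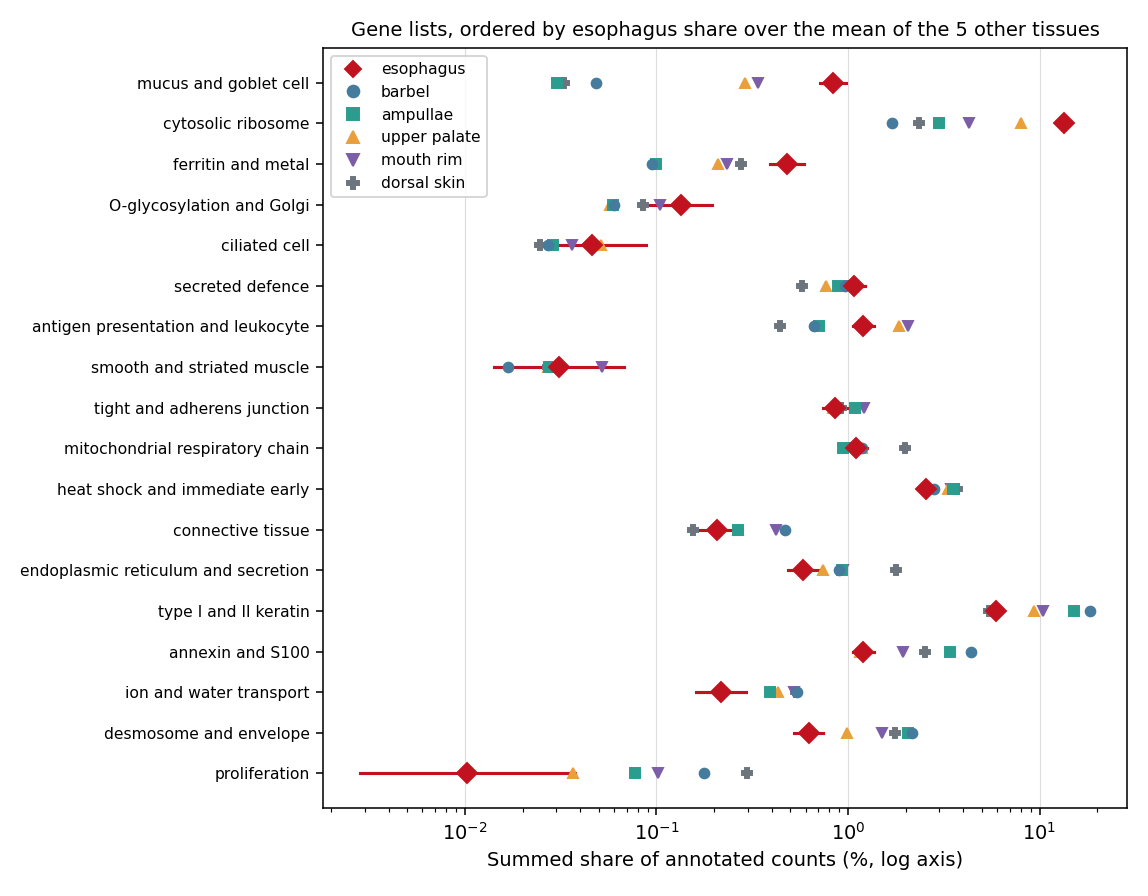
Summed shares of 18 gene lists (%, log axis), 1 row per list, with the esophagus as a red diamond with its 95% interval and the other 5 tissues as the symbols of the legend. The esophagus lies right of every other tissue for mucus (0.834%), ribosome (13.5%), ferritin (0.479%), O-glycosylation (0.134%) and secreted defence (1.07%). It lies left of all for ion transport (0.216%), desmosome (0.623%, plakophilin-1 included), proliferation (0.0103%), endoplasmic reticulum and secretion (0.582%) and heat shock (2.56%). Its interval was separate from those of all 5 other tissues only for mucus, ribosome, ferritin, ion transport and desmosome. With all counts as the total, O-glycosylation and secreted defence lay within the other tissues.

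Near the limit of the rule, the loci just inside were PB.8838 (interferon alpha/beta receptor 1a-like, 6 counts), PB.11262 (ribosomal protein S8, 21) and PB.14912 (collagen XV, 10), whose lower bounds were 1.006 to 1.017 times the highest upper bound of the others. Those just outside by the interval were PB.9438 (L24, 16 counts), PB.2192 (S6, 21) and PB.6907 (S7, 9), at 0.968 to 0.991 times. Glyceraldehyde-3-phosphate dehydrogenase (PB.18488), an enzyme of glycolysis, had separate intervals, with 118 counts or 0.607% (0.508 to 0.727%), against 0.157 to 0.340%, but at 1.79-fold the mouth rim it missed the 2-fold limit.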

How the data were processed

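The deposited table gives raw counts, as whole numbers of reads for each transcript in each library. The authors made it with IsoSeq3 (version 3.4.0), alignment to the sterlet genome (ASM1064508v1; the aligner is not given in the sources used here), filtering with Sqanti3 (version 4.1) with a minimum of 3 supporting reads, and blastp (version 2.14.1) of translated transcripts to sterlet proteins (e-value under 0.01, identity of at least 80%). Reads were not scaled, and protein names stop at the first comma. Columns without a library numbered 0.

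Counts of transcripts with a protein name were summed by PacBio locus (PB number) and divided by their total in each tissue. Unnamed transcripts (34.8% of esophagus counts, 4.07 to 19.2% in the other tissues) were left out of these sums and described separately. The intervals were Wilson 95% intervals, and the limits were 10 counts over the 6 tissues and 2-fold. edgeR 4.0.16 (R 4.3.3, limma 3.58.1; filterByExpr, TMM, glmQLFit, glmQLFTest) compared 1 library with 5 at an FDR of 0.05, with spread from the 5 other tissues alone. DESeq2 1.42.0 was an alternative. Both rules were tested on simulated data, where edgeR with 1 library in a group found few of the changed loci. Other steps used Python 3.11.15, numpy 2.4.6, pandas 2.3.3, scipy 1.17.1 and matplotlib 3.10.9.

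The loci named were drawn from the 20 above and up to 12 below with the widest gap between intervals. Others came from the 10 most abundant in the esophagus. In each of 22 lists (matched on protein names), the most abundant member and up to 3 called were also drawn. Not every locus drawn is described, and PB.1907 (L37), PB.12861 (actin) and PB.24309 (jun-D) are among those left out. Members of a list given beside the loci drawn, and second loci of a name, were chosen after their values were seen. The comparison, the lists and their patterns were chosen with earlier results of these data known. Alternatives were other totals, count, fold and interval limits, summing by transcript or protein name, leaving out each other tissue, and other edgeR settings. Sequences were not analysed here.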

Additional observations from a re-analysis of the deposited data

Results flagged for a closer look

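Transcripts with no protein name stood outside the comparisons. Summed by locus, as a share of all counts, 35 of 533 such loci lay above all 5 other tissues by the same limits and 1 below. Of the 4687 named loci, 41 were above and 21 below with all counts as the total, and 77 (1.64%) were above with annotated counts. The 10-count minimum includes the esophagus here too. PB.2867, with 26 counts there and 0 in the other tissues, was tested only through it. Of the 35, the 4 that held at least 0.1% of all esophagus counts are given here. PB.26569, with 146 transcripts, made 23.72% (7068 counts), against 0.821 to 10.9%, and 68.2% of all unnamed esophagus counts. A single transcript, PB.26569.120, made 61.0% of the locus in the esophagus and 56.3% in the other tissues pooled. In the green esophagus culture the locus had 912 counts (0.333%). The unnamed transcripts of PB.24960, the beta-2-microglobulin locus, made 0.349% (104 counts), against 0.0137 to 0.168%. PB.25346 made 0.1309% (39 counts), against 0.00783% in barbel and 0.0438% in upper palate, the lowest and highest of the 5. PB.10998 made 0.1175% (35 counts), against 20 counts in upper palate (0.0258%), 7 in mouth rim, 4 in ampullae, 1 in dorsal skin and 0 in barbel. The files give these loci no name, and none is given here.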

How the results depend on the processing

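The count of loci above the other tissues was 77, and 41 with all counts as the total, 48 with a 3-fold limit, 42 with Wilson 99% intervals and 33 with intervals at the esophagus depth. Leaving out 1 other tissue gave 75 to 175, the highest without the upper palate. The count below was 10, and 21 with all counts as the total, 6 with 99% intervals and 16 with transcripts in place of loci, and leaving out 1 tissue gave 10 to 27, again highest without the upper palate. Under every other total and with every tissue left out, 39 of the 77 loci (18 ribosomal) and 9 of the 10 kept their call. edgeR's 5 loci higher became 3 with DESeq2, 10 with no filter, 0 with at least 10 counts in 2 libraries, 3 at an FDR of 0.01 and 2 to 27 when 1 tissue was left out. Its 0 lower became 2 with DESeq2, 5 with no filter and 0 to 1 when 1 tissue was left out. Summed over all transcripts named keratin, the log2 ratios of PB.23354 and PB.22701 turned to -1.63 and 0.18, since that sum holds every keratin locus. Of the other alternatives for single loci, 133 stayed within counting error and 5 moved. For list shares, 47 stayed and 42 moved. By value, the keratin, junction, respiratory chain and annexin lists fell from within the other tissues to below them with all counts or TMM-scaled totals. Secreted defence fell from above to within under both totals. With all counts alone, O-glycosylation fell from above to within and connective tissue from within to below. These places ignore the intervals. The cause of these differences was otherwise not tested. All counts as the total shifted the log2 ratios of all loci by -0.459 on average over the 5 tissues, and TMM by -0.28. A gene at 0 in the esophagus is limited only to 0.0154%, so one near or under that share in another tissue could not be called below. No paired analysis was possible because each tissue has 1 library.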

Other observations

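Of the 34 loci above the other tissues that were in no list, 6 are described here with a chemokine, all chosen after their values were seen and tested for no shared theme. PB.22201 (TNFAIP3, a ubiquitin-editing brake on NF-kappa-B) had 11 counts in esophagus, against 5, 0, 9, 13 and 5 in barbel, ampullae, upper palate, mouth rim and dorsal skin, or 3.94-fold the upper palate (1.64 to 9.52). PB.19726 (CYLD, a deubiquitinase of the same pathway) had 10, against 13, 3, 5, 13 and 11, or 4.50-fold the mouth rim (1.97 to 10.3). PB.12125 (PARP9) had 20, against 26, 1, 25, 35 and 4, or 2.58-fold the upper palate (1.43 to 4.65). The chemokine CCL20 locus PB.16054, from the leukocyte list, had 5, against 3, 0, 0, 2 and 2, and rests on 12 counts in all. PB.16199 (cyclin-L1) had 26, against 12, 11, 32, 11 and 11, or 2.62-fold the upper palate (1.56 to 4.40), and PB.4257 (the splicing kinase PRP4) had 7, against 1, 2, 0, 0 and 2. PB.22201 and PB.12125 lost the call with all counts as the total, and PB.16054 with another total or a tissue left out. None of these loci was called by edgeR, which did not test PB.16054 and PB.4257.

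The transcription factor Elf-3 (PB.23798), an epithelial ETS factor, was also above, with 16 counts, against 16, 19, 18, 19 and 26 in barbel, ampullae, upper palate, mouth rim and dorsal skin, or 2.85-fold the ampullae (1.47 to 5.54), whereas KLF4 was below. Elf-3 lost its call with all counts as the total. Of the 77 loci above, 68 (88.3%) had counts in the green esophagus culture, and of all 4687 loci tested 4069 (86.8%) did.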
